A study of Mus musculus with 4 samples.

Results

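Transcripts of the small intestine of wild type (WT) mice given lubiprostone were compared with those of untreated WT mice, over every gene that the arrays measured well enough in either group. A gene entered the comparison when it had a probe set carrying only its own symbol with a signal at or above the median of its array in at least 1 of the 2 arrays, which left 11691 of the 18194 genes with such a probe set. Its value is the log2 ratio of the signal in WT + lubiprostone over the signal in WT control, averaged over its kept probe sets, so that 0 is no difference and 1 is a 2-fold higher signal. WT mice were littermates of Cftr null (CF) mice, bred from heterozygous parents on the C57BL/6J background, and all mice were fed the liquid diet Peptamen. Treatment was a once-daily gavage with lubiprostone, 10 µg/kg/day over 2 weeks, in an emulsion made with the diet. Whether the control mice were gavaged is not stated in the sources used here, nor are the sex and age of the pooled mice. Total RNA of whole small intestines, with the mesentery trimmed off, was pooled within each group, and every pool was read on an Affymetrix whole-genome mouse array of its own. The WT + lubiprostone pool held RNA of 7 mice. The WT control pool held 10 by the series description and 8 by the methods.

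Each group is therefore 1 value per gene, so the differences have no replicate check: the spread among mice or among pools was not measured, and no test was made. The only error that can be given is the spread between probe sets of 1 gene on the same pair of arrays, with a median SD of 0.20 on the log2 scale over the 5233 genes with more than 1 kept probe set. Signals are intensities in arbitrary units that compare arrays and not genes. The median signal was 124 in WT control and 123 in WT + lubiprostone. A probe set that reached the median on only 1 of the 2 arrays is therefore in effect bound to be higher on that array. Where the fold of a single gene is written as "at least", a signal lay under the median of its array and was replaced by that median before the ratio was taken. Counts of genes at least 1.5-fold, 2-fold or 3-fold apart use the ratios as measured, unless stated otherwise. The defining enterocyte markers were bright in both pools: Vil1, which bundles the actin of microvilli, had signals of 23349 without and 24067 with the drug, and Fabp2, a fatty acid carrier of enterocytes, had 44156 and 47079. Here and below the first value of a pair is WT control and the second WT + lubiprostone, unless CF is named. Xist, which silences an X chromosome in female cells, had 308 and 976, and of the Y-linked genes Eif2s3y had 1242 and 829, Kdm5d had 298 and 222, and Uty had 253 and 162. The part of a different sex ratio in the results was not tested.

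Lubiprostone is a bicyclic fatty acid related to prostaglandins and is used against constipation. It opens chloride channels of the epithelium, for which CLC2, CFTR and signalling through prostanoid receptors have each been proposed, and chloride drawn into the lumen brings water with it. The small intestine responds to its contents with secreted defence lectins, mucus, bicarbonate and enzymes of drug metabolism, and RNA prepared from the whole organ holds all cell layers of its wall and whatever tissue is attached to it.

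The 2 pools were alike in most genes. Of the 11691 genes, 90.7% lay within 1.5-fold, and the median log2 ratio was -0.00. At least 3-fold higher were 57 genes (0.488% of those measured) and at least 3-fold lower were 69 (0.59%). Most of these were not bright. Bright genes, those with a kept probe set at or above the 75th percentile of an array, made up 6 of the 57 higher and 21 of the 69 lower genes, although 6977 of the genes were bright. The ratios spread more among dimmer genes. With 2.5% of genes left out at either end, ratios ran from 0.480 to 2.12 among the 4714 dimmer genes and from 0.702 to 1.39 among bright genes. With signals below the median set to it, 5 genes were 3-fold higher and 19 were 3-fold lower. The 5 were Saa1, Saa2, Depp1, 2310057J18Rik and Lce1h. The 19 were 12 genes of pancreatic acinar cells, the heat shock genes Hspa1a, Hspa1b and Hsph1, and Cyp1a1, Gsdmc2, Scd1 and Cyp2c29. Among bright genes whose kept probe sets all pointed 1 way, 20 were at least 2-fold higher (0.287% of bright genes) and 27 at least 2-fold lower (0.387%).

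**Figure D1:**
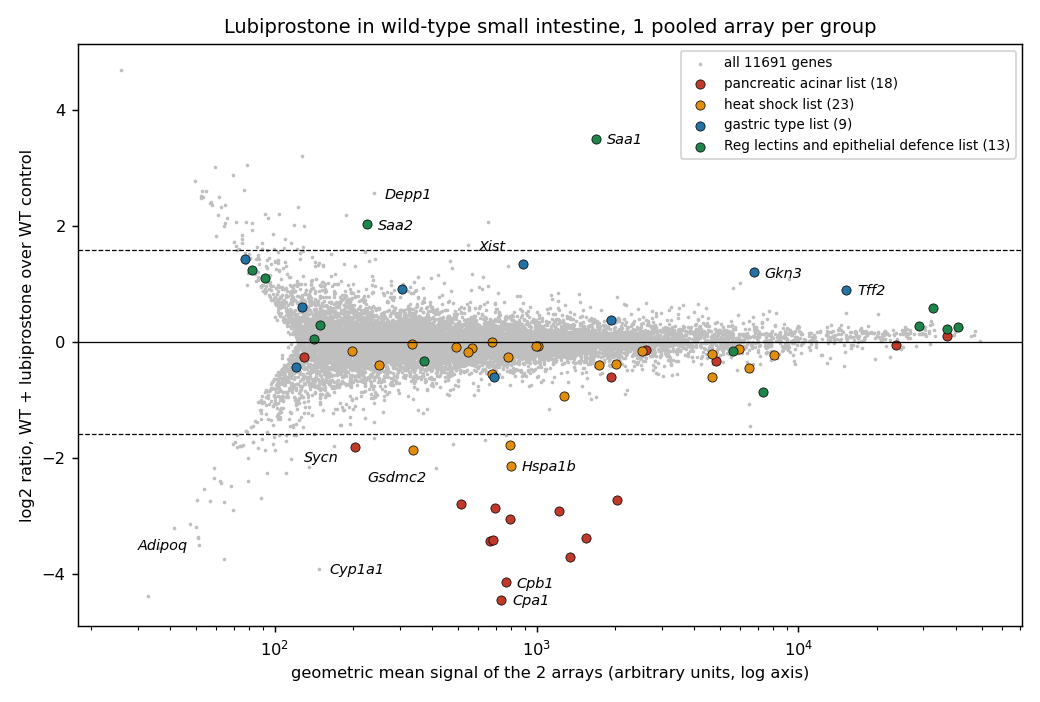
Log2 ratio of WT + lubiprostone over WT control (y axis) against the geometric mean signal of both arrays (x axis, log scale, arbitrary units), 1 point per gene for 11691 genes, with members of 4 gene lists coloured and dashed lines at 3-fold. The cloud is narrow at high signal and wide at low signal; Saa1 stands above it at 3.50, alone at its signal, and the pancreatic genes lie below it down to -4.45 for Cpa1.

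Genes of the exocrine pancreas were the lowest of all. The acinar cells of the pancreas make the digestive enzymes that enter the duodenum through the pancreatic duct, and in mice the gland lies in the mesentery along the duodenum. Of 31 genes listed for these cells, 20 had a probe set of their own and 18 were kept. Of the 18, 17 were lower in WT + lubiprostone, against 50.4% of all genes, and 13 by at least 1.5-fold, against 4.93%. The median log2 ratio was -2.83 against -0.00 over all genes. Cpa1, which encodes carboxypeptidase A1, had a signal of 3422 in WT control and 157 in WT + lubiprostone, 21.8-fold lower and the lowest ratio among bright genes. Cpb1, for carboxypeptidase B1, had 3214 and 182, a 17.7-fold difference. Ctrb1, for chymotrypsinogen B1, had 4840.1 and 371, a 13.0-fold difference. Each of them was still above the array's median in the treated pool.

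The other enzymes of the list followed in the same range. The 11 bright members that were at least 3-fold lower had signals between 1359 and 5206 in WT control and between 157 and 789 in WT + lubiprostone. As they were picked for their ratio, the separation of these ranges is a description. Besides those named, they were the chymotrypsin-like protease gene Ctrl, 10.8-fold lower, the bile salt-activated lipase gene Cel, 10.6-fold, the elastase genes Cela2a, 10.4-fold, Cela3b, 8.36-fold, and Cela1, 6.60-fold, the trypsinogen genes Prss2, 7.58-fold, and 2210010C04Rik, at least 6.92-fold, and the lipase-related gene Pnliprp1, 6.99-fold. The 4 probe sets of Prss2 had ratios between 0.124 and 0.140, while those of Cela3b ranged from 0.0897 to 0.280 and those of 2210010C04Rik from 0.0768 to 0.421. Trypsinogen and elastase genes are families of near-identical sequence, so probe sets of 1 member may also bind transcripts of another. The zymogen granule gene Sycn, with signals of 379 and 108, was at least 3.10-fold lower, and Pla2g1b, the pancreatic phospholipase A2, which the list does not hold, had signals of 242 and 50.6 and was at least 1.98-fold lower.

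A few members of the list stood nearer to 1, some of which are made elsewhere in the gut as well. Zg16, a lectin that goblet cells also secrete, had signals of 35488 and 38126. Spink1, a trypsin inhibitor, had 24008 and 23203, and Clps, for the lipase cofactor colipase, had 5422 and 4306, 1.26-fold lower in each of its 2 probe sets (ratios 0.791 and 0.797). The signals of the 16 kept members that no other list holds, Spink1 among them, summed to 64587 and 31049.6. The nearly level signal of Spink1 made up most of the second sum, so the sums understate the difference of the other members. The mesentery was trimmed before extraction, and how much pancreas was left on each intestine is not given. In whole-organ RNA, less acinar tissue in a pool and less RNA per acinar cell cannot be told apart.

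The CF pools, which share no array with the WT pools, showed the same genes lower with lubiprostone. In the CF pools the 11 bright enzymes had signals between 1299 and 6570.1 without and between 359.7 and 1581 with lubiprostone, and were 2.98- to 5.6-fold lower, a smaller difference than in WT for each of them. The list's median log2 ratio in CF was -1.85 over 17 genes. The 2 control pools were near each other for these enzymes, with CF control at 0.752 to 1.39 times WT control.

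**Figure D2:**
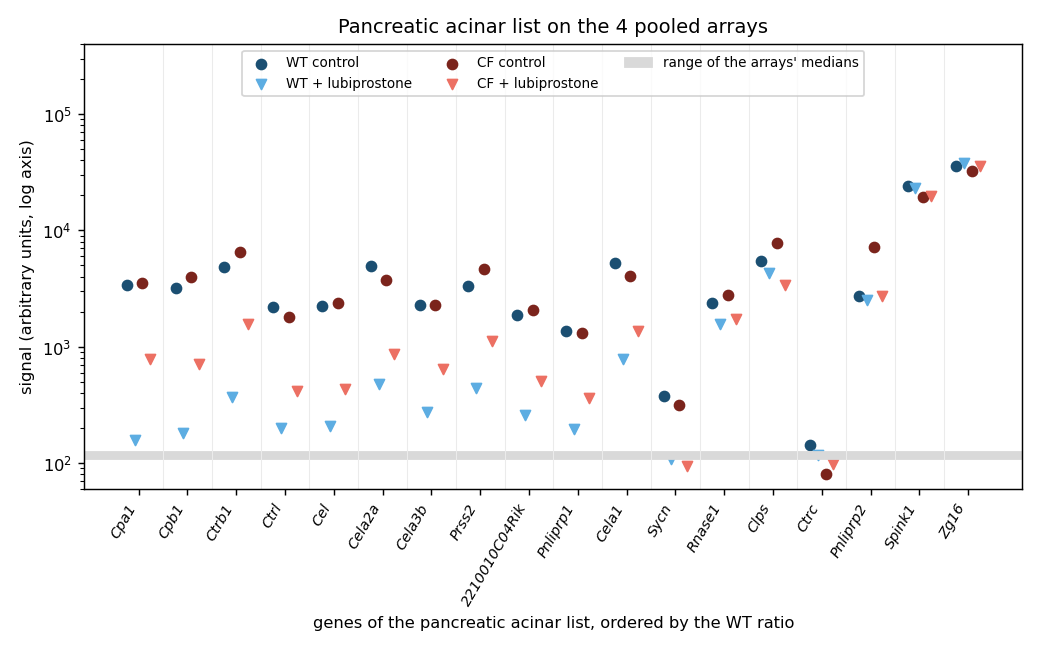
Signals of the 18 kept genes of the pancreatic acinar list on the 4 pooled arrays (y axis, log scale, arbitrary units), ordered by the WT ratio, circles for control pools and triangles for lubiprostone pools, with the span of the 4 array medians shaded grey. For the 11 genes at the left both control pools lie at 1299 or above and both lubiprostone pools below them, the WT + lubiprostone pool lowest, while Spink1 and Zg16 at the right are level on all 4 arrays.

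Promoter sequence is shown for Cela3b, whose 4 probe sets make it the best covered of the elastases, and for Cpb1, the second lowest of the pancreatic genes, so that the region upstream of members that moved together can be seen. Both are the 250 bases before the RefSeq start on the minus strand of GRCm38.p6, at chr4:137430521-137430770 for Cela3b and chr3:20275734-20275983 for Cpb1, with matches to CACCTG, searched on both strands, in capitals. This E-box is of the kind bound by the acinar transcription factor PTF1 and was picked after the values of these genes were seen.
Cela3b: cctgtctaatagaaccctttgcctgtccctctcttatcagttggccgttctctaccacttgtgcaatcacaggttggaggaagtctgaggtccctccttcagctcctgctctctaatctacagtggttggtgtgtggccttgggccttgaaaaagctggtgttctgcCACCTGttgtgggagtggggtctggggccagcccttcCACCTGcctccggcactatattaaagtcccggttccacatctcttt
Cpb1: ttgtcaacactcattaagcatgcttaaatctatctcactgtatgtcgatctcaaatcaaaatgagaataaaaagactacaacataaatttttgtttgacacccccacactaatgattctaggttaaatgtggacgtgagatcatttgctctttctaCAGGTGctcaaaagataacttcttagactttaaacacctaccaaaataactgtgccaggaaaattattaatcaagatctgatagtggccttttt
Of the 31 listed genes 21 had a promoter in the RefSeq table used, and 12 of these, 57.1%, held CACCTG on either strand in this window, against 19.4% of 27025 genes. Cpa1, with the lowest ratio, and Ctrb1 were not among the 12. A match describes the letters of this window and not a bound site.

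Genes of the heat shock response were lower, most of them by little. These chaperones fold proteins and are induced together by heat and other stress through heat shock factors. All 23 kept members of the list, of 25 written, had a lower signal in WT + lubiprostone, against 50.4% of all genes, and 5 were at least 1.5-fold lower against 4.93%. The median log2 ratio of the list was -0.22. The inducible HSP70 genes led it. Hspa1b had a signal of 1671 in WT control and 379 in WT + lubiprostone, 4.41-fold lower, with ratios of 0.20 to 0.267 over its 3 probe sets. Hspa1a had 646 and 177, 3.66-fold lower. Hsph1, for the HSP110 cochaperone that reloads HSP70, had 1465 and 427 and was 3.43-fold lower, with ratios of 0.291 in both of its probe sets. These 3 genes stood apart from the rest of the list. The other 20 members had a median of -0.20.

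The brightest members of the list differed less than these 3 genes. Hsp90aa1, the stress-inducible HSP90, had signals of 5774 and 3792, a 1.52-fold difference. Hspa8, the constitutive HSP70, had 7617 and 5547, with ratios of 0.593 to 0.916 over 4 probe sets. Hspd1, the mitochondrial HSP60, had 8681 and 7429. Chordc1, a partner of HSP90, was 1.91-fold lower and was picked after its value was seen. Bag3, a cochaperone that is itself heat-induced, had 677 and 676, the highest ratio of the list, which lay above 1 after scaling to equal array medians. Cirbp, an RNA-binding protein named for its induction by cold, had the opposite sign, with signals of 497 and 1229.8, 2.48-fold higher and among the 15 highest of the bright genes.

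In the CF pools 20 of the 23 lay below 1, against 48.6% of all genes, and the list's median was -0.35. Hspa1b was 4.93-fold lower there, Hspa1a 3.97-fold and Hsph1 5.12-fold, and Cirbp was 4.51-fold higher. The differences in WT and CF thus had the same sign for the genes that led the list.

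**Figure D3:**
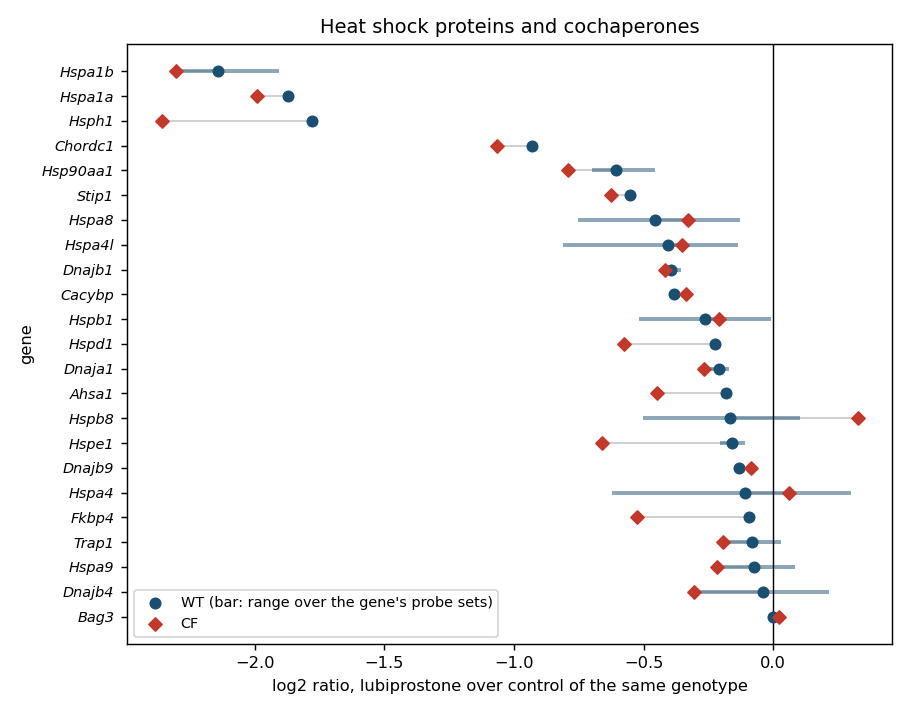
Log2 ratio of lubiprostone over control of the same genotype (x axis) for the 23 kept heat shock genes (y axis), with circles for WT, bars for the range over a gene's probe sets in WT and diamonds for CF. All WT circles lie at or left of 0, from -2.14 for Hspa1b to -0.00 for Bag3, and the 3 lowest genes are the same in both genotypes.

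The upstream sequences of Hspa1a and Hspa1b are shown because the heat shock element is the site through which these genes are induced. Both lie on the minus strand of chromosome 17 of GRCm38.p6, and the 250 bases before the RefSeq start are chr17:34972157-34972406 for Hspa1a and chr17:34959239-34959488 for Hspa1b. Capitals mark matches to GAANNTTC, the core of the heat shock element, which reads the same on both strands.
Hspa1a: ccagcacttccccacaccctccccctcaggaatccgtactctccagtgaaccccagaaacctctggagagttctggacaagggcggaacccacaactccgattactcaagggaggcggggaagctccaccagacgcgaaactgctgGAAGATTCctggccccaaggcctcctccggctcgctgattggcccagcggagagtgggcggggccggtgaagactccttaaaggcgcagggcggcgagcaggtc
Hspa1b: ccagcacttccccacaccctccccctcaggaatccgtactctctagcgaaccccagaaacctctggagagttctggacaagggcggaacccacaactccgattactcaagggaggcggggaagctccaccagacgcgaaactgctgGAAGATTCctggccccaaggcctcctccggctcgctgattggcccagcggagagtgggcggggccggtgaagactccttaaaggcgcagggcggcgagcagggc
The match begins 104 bases before the start in both, and 247 of the 250 bases are identical. The transcripts of the pair are also known to be near-identical, so probe sets of either may bind both. Transcript and probe sequences were not compared here. Of the 25 listed genes 20 had a promoter in the table, and 7 of these, 35.0%, held the motif, against 7.73% of 27025 genes. Besides this pair they were Dnaja1, Fkbp4, Hspb1, Hspd1 and Hspe1, whose ratios were all within 1.5-fold.

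The highest bright gene was Saa1, for serum amyloid A1, an acute phase protein that the gut epithelium makes in response to bacteria. Saa1 had a signal of 503 in WT control and 5702 in WT + lubiprostone, 11.3-fold higher, with ratios of 11.1 and 11.6 in its 2 probe sets. Saa2, of near-identical sequence, had 112 and 457 and was at least 3.69-fold higher. Saa3 had 139 and 145. The higher level was thus in probe sets of Saa1 and Saa2, which may bind each other's transcripts, and Saa3 was near 1.

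Of 18 genes listed for Reg lectins and epithelial defence, 13 were kept. Of these 10 were higher in WT + lubiprostone, against 49.6% of all genes, and 5 by at least 1.5-fold, against 4.41%. The 5 were Saa1, Saa2, Reg3g, Lcn2 and Fut2. Of them, Saa2, Lcn2 and Fut2 lay under the median in WT control and were kept only through the WT + lubiprostone array. The filter thus fixed the direction of these genes. The median log2 ratio was 0.27, and 0.23 with signals below the median set to it. The brightest members, the bactericidal lectin genes Reg3b and Reg3g and Reg1, of the same family, were among the strongest signals on the arrays. Reg3g had signals of 26583 and 39910.3, a 1.5-fold difference. Reg3b had 37303 and 44640.5 and Reg1 had 34059 and 39856, so these lectins were slightly higher. Reg3a, another lectin, had 9907 and 5437, the lowest ratio of the list at 0.549. Pigr, which carries IgA across the epithelium, had 26276 and 31628 with ratios of 1.20 and 1.21. Lcn2, for an iron-binding protein that starves bacteria, had dim signals of 63.0 and 135, at least 1.09-fold higher.

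In the CF pools this list did not move together, with 7 of 13 higher, against 51.4% of all genes, and a median of 0.00. Saa1 was already at 7057 in CF control, above the WT + lubiprostone level, and 7985 in CF + lubiprostone. Reg3g had 44772 and 44809.8 there.

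Genes of the stomach were mostly higher as well. Of 15 genes listed as gastric, 9 were kept and 7 of these were higher, against 49.6% of all genes, 6 of them by at least 1.5-fold, against 4.41%, with a median log2 ratio of 0.89. With signals below the median set to it the median was 0.37. Gkn3, a gastrokine of the gastric and duodenal mucosa, had signals of 4455 and 10228, 2.30-fold higher with ratios of 2.25 and 2.34 in its 2 probe sets. Tff2, a trefoil peptide of gastric mucous neck cells and duodenal glands, had 11168 and 20743, 1.86-fold higher. Gkn2 had 555 and 1409 and was 2.54-fold higher, and Gkn1 had 224 and 419.8. The trefoil gene Tff1 had 1697 and 2189.6. Cym, for the milk-clotting protease chymosin, went the other way with 852 and 560.3, the lowest ratio of the list. The acid pump subunit gene Atp4b, a marker of parietal cells, had the highest measured ratio from signals of 46.9 and 126, but its upper signal lay close to the array's median and the fold was at least 1.02. In the CF pools 2 of the 6 measured members were higher with lubiprostone, against 51.4% of all genes, with a median of -0.19. Gkn2 was lower there, with 1249 and 727, and Gkn3 was higher, with 1663 and 4226.

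Other genes that are strongest near the stomach stood among the higher bright genes. Pdx1, a transcription factor of the duodenum and pancreas, had signals of 282 and 627, 2.23-fold higher. Akp3, an alkaline phosphatase of the duodenal brush border, had 6332 and 13447, a 2.12-fold difference. Slc40a1, for the iron exporter ferroportin, had 4189.9 and 8494, 2.03-fold higher in both probe sets (ratios 2.02 and 2.04), and Cybrd1, the ferric reductase of the duodenal brush border, had 164 and 345. A list of 18 proximal genes was then written after these values were seen. It had 12 higher, against 49.6% of all genes, with a median of 0.13. A list of 14 distal genes, written in the same way, had 10 lower, against 50.4% of all genes, with a median of -0.50. In it, Nts, the ileal peptide neurotensin, had 2981 and 1590.1, and Fgf15, the ileal hormone of bile acid feedback, had 369.8 and 202. However, the ileal bile acid binding protein gene Fabp6 had 20674 and 22885, the bile acid exporter gene Slc51b had 3279.7 and 4398, and the proximal hormone gene Gip had 4414 and 3515. As the lists were chosen with the values known, their medians describe these pools and support nothing. The share of each part of the gut in the pools was not measured.

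Carbonic anhydrases, which supply bicarbonate and protons to the epithelium, included higher and lower genes. Of 10 listed genes 9 were kept and 6 were higher, against 49.6% of all genes, 3 of them by at least 1.5-fold, against 4.41%, with a median log2 ratio of 0.56. Car2, the abundant cytosolic enzyme, had signals of 2654 and 4023, 1.52-fold higher. Car4, anchored at the apical membrane, had 1753 and 2736, with ratios of 1.33 and 1.83 in its 2 probe sets. Car9 had 2011 and 2972. Car1 had the highest ratio from dim signals of 55.2 and 275, at least 2.22-fold. Car3, an enzyme of fat and muscle, had the lowest, with 206 and 42.8 and at least 1.68-fold. In CF the list's median was -0.16, and Car4 had 9621 and 6095 there.

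The proposed targets of the drug are given one by one. Clcn2, for the CLC2 channel, had a signal of 1520.4 in WT control and 1564 in WT + lubiprostone. Cftr had 870.5 and 595, 1.46-fold lower, with ratios of 0.527 and 0.888 in its 2 probe sets. Of the prostaglandin E receptors, Ptger4 had 1122 and 869, with ratios of 0.649 and 0.922. Ptger2 had 225 and 135, 1.67-fold lower from 1 probe set. Ptger3 had 133 and 58.8 and the thromboxane receptor gene Tbxa2r had 186 and 208. Of the 11 listed genes 6 were kept and 4 were lower, against 50.4% of all genes. Their median was -0.46, and -0.12 when the filter was set at the 75th percentile.

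Genes of salt and water transport were level on balance. Of 16 kept genes of chloride, bicarbonate and sodium transport 9 were higher and 7 lower, with a median of 0.06, and only Ano1 passed 1.5-fold, from dim signals whose 2 probe sets disagreed (ratios 0.606 and 6.46). The sodium pump subunit gene Atp1b1 had 23191 and 25562. The anion exchanger gene Slc26a6 had 9002 and 10928, Pdzk1, picked as the third brightest member, had a log2 ratio of -0.07, and the bicarbonate importer gene Slc4a4, picked after its value was seen, had 1005 and 1476 with ratios of 1.28 to 1.65 over 4 probe sets. All 7 kept genes of the 8 listed aquaporins, the water channels, had a lower signal in WT + lubiprostone, against 50.4% of all genes, with a median of -0.17. Of them 1 passed 1.5-fold, against 4.93%. The brightest, Aqp1 of the endothelium, had 2768 and 2559. The lowest ratio of the list was that of Aqp8, with signals of 199.6 and 91.7 and at least 1.63-fold lower. Aqp2, which the list does not hold, had a lower ratio from dim signals of 151 and 7.22, at least 1.23-fold lower. All 7 kept members of the list were higher with lubiprostone in the CF pools, against 51.4% of all genes, and the median there was 0.50.

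Of the prostaglandin genes, 12 of 18 listed were kept, 7 of them higher and 5 lower, with a median of 0.05. Pla2g4c, a phospholipase A2 that frees fatty acids from membranes, had 293 and 108, the lowest ratio of this list, with ratios of 0.280 and 0.487 in its 2 probe sets. The reductase gene Ptgr1 had 7752 and 8497, the degrading enzyme gene Hpgd had 2140.3 and 1862, and the phospholipase gene Pla2g2a had 885 and 1469.7.

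Mucus genes were close to level. Of 14 kept goblet cell genes 11 were higher, against 49.6% of all genes, none by as much as 1.5-fold. Their median was 0.08, and 0.02 after quantile normalization. Muc2, the gel-forming mucin, had signals of 16545 and 17206, Muc3, a mucin of the cell surface, had 28489 and 32634, and the trefoil gene Tff3 had 25152 and 28076. Of the 20 kept glycosyltransferases that build mucin glycans 15 were higher, against 49.6% of all genes, and 4 by at least 1.5-fold, against 4.41%. Their median was 0.18. The sialyltransferase gene St3gal4 had 15546 and 17529.9. Chst4, a sulfotransferase picked after its value was seen, had 434 and 682, and Fut2, the fucosyltransferase, had the highest ratio from dim signals of 53.5 and 126, at least 1.02-fold. In CF 12 of 19 were lower, against 48.6% of all genes, with a median of -0.26.

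Enzymes of drug and lipid metabolism held several of the lowest ratios outside the pancreas. Cyp1a1, the P450 induced through the aryl hydrocarbon receptor, had signals of 571 and 38.0, at least 4.66-fold lower. Cyp2c29 had 1332 and 435, 3.06-fold lower. Of the 24 kept P450 and phase I genes 16 were lower, against 50.4% of all genes, 5 of them by at least 1.5-fold, against 4.93%, with a median of -0.17. The 4 strongest signals of the list were slightly higher, among them Cyp3a11, Cyp3a13 and Adh6a. Cyp3a11 had 27739.5 and 33124, Cyp3a13 had 19665 and 20775, and the alcohol dehydrogenase gene Adh6a had a log2 ratio of 0.15. Of 36 kept genes of phase II conjugation and ester cleavage 22 were higher and 14 lower, with a median of 0.05. The lowest was the carboxylesterase gene Ces2a, which had 9431 and 4459.5, 2.11-fold lower, and Ces2b, picked after its value was seen, had 2339 and 1213, while Ces1d, of the same enzyme family and likewise picked, had 169 and 330.2.

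Scd1, the desaturase that makes oleate, had 880.2 and 261 and was 3.38-fold lower. It led a list of 16 kept genes of fatty acid synthesis, of which 10 were lower, against 50.4% of all genes, 4 of them by at least 1.5-fold, against 4.93%, with a median of -0.10. Its regulator Srebf1, picked after its value was seen, had 1672 and 1039, and Me1, the NADPH-making malic enzyme, also picked after its value was seen, had 795 and 420.0 with ratios of 0.504 and 0.553. Elovl1, a fatty acid elongase, had the highest ratio of this list, with 1250.0 and 1823. Genes of fatty acid oxidation were level, with 15 of 28 higher and a median of 0.03. Cyp1a1 and Ces2a were also lower with lubiprostone in CF, with signals of 291 and 18.7 for Cyp1a1 and of 1437 and 641 for Ces2a, and Scd1 had 313 and 143.

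Gsdmc2, a gasdermin of the gut epithelium, had signals of 875 and 194, 4.50-fold lower from 1 probe set. Of the other 3 kept gasdermins, Gsdmd had 5779 and 6722, Gsdme had 1072 and 1081, and the dim Gsdma2 had 137 and 39.5. Dnase1, a secreted nuclease, was one of the brightest of the lower genes with 10854 and 3955, 2.74-fold lower. Slc5a12, a carrier of lactate and other monocarboxylates, had 1676 and 746, 2.25-fold lower with ratios of 0.444 and 0.446.

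Genes of antigen presentation and of T cells were mostly lower, by small amounts. Of 11 kept MHC class II genes, which present antigen to helper T cells, 10 were lower, against 50.4% of all genes, 2 of them by at least 1.5-fold, against 4.93%, with a median of -0.36. Cd74, the invariant chain, had signals of 11100.5 and 8520.5, H2-Eb1 had 5811 and 4542, and H2-Oa had the lowest ratio from dim signals of 166 and 94.9. Ctss, the protease that trims the invariant chain, had the only higher signal, 9141 and 10144. In CF all 9 measured members were higher with lubiprostone, against 51.4% of all genes, with a median of 0.40. Of 15 kept T cell genes 13 were lower, against 50.4% of all genes, with a median of -0.26. The granzyme gene Gzma had 5874 and 5753, Gzmb had 1593 and 1233, and the chemokine gene Ccl5 had 1569 and 1088. The list's CF median was 0.26, with 10 of 13 higher, against 51.4% of all genes.

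All 5 kept mast cell genes of 15 listed were lower, against 50.4% of all genes. Their median of -0.54 was -0.22 with dim signals set to the median. Mcpt2, a protease of mucosal mast cells, had 231 and 140.4, and the amine transporter gene Slc18a2 had 223 and 153, while Kit had 275 and 238. In WT these signals lay near the array's median. Macrophage genes had a median of -0.06 and B and plasma cell genes of -0.00. The neutrophil list kept only 2 genes, with dim signals of 38.0 and 159.7 for Elane and of 79.2 and 132 for Ltf. Both lay under the median in WT control and were kept only through the WT + lubiprostone array. The filter thus fixed that they would be higher. The erythroid list kept 1, Sptb, with 162 and 161.

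Among other tissues, 9 of 16 adipocyte genes were kept and 6 were lower, against 50.4% of all genes, with a median of -0.29. Adipoq, the defining adipokine, had signals of 173 and 15.3, at least 1.41-fold lower, and Lpl, the lipase at the vessel wall of fat and muscle, had 623 and 349. Fabp4 had 1631 and 1278, Cidec 978 and 873, and Lipe 930.5 and 935. Mesenteric fat and pancreas lie together along the gut, and the share of each in the pools was not measured. Of 26 kept genes of fibroblasts, collagens and laminins 21 were lower, against 50.4% of all genes, with a median of -0.17. Col3a1 had 2258 and 1750.0. Smooth muscle genes had a median of 0.11, with signals of 13021 and 14029 for Acta2. Of 33 kept ribosomal protein genes 32 were higher against 49.6% of all genes, with a median of only 0.18.

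Genes of the villus did not share these differences. Of 19 kept brush border genes 11 were higher and 8 lower, with a median of 0.04. Alpi, the intestinal alkaline phosphatase, had signals of 28219 and 36313, the starch-digesting Mgam had a log2 ratio of 0.29, and Lct, the lactase, had 24559 and 20420.1. Lists of lipid absorption, cell cycle, crypt cells, enteroendocrine cells, interferon-stimulated genes and the circadian clock all had medians within 0.07 of 0. Of the 60 lists with at least 4 kept genes, 49 had a median within 0.2 of 0, 3 were at or above 0.2 and 8 at or below -0.2.

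**Figure D4:**
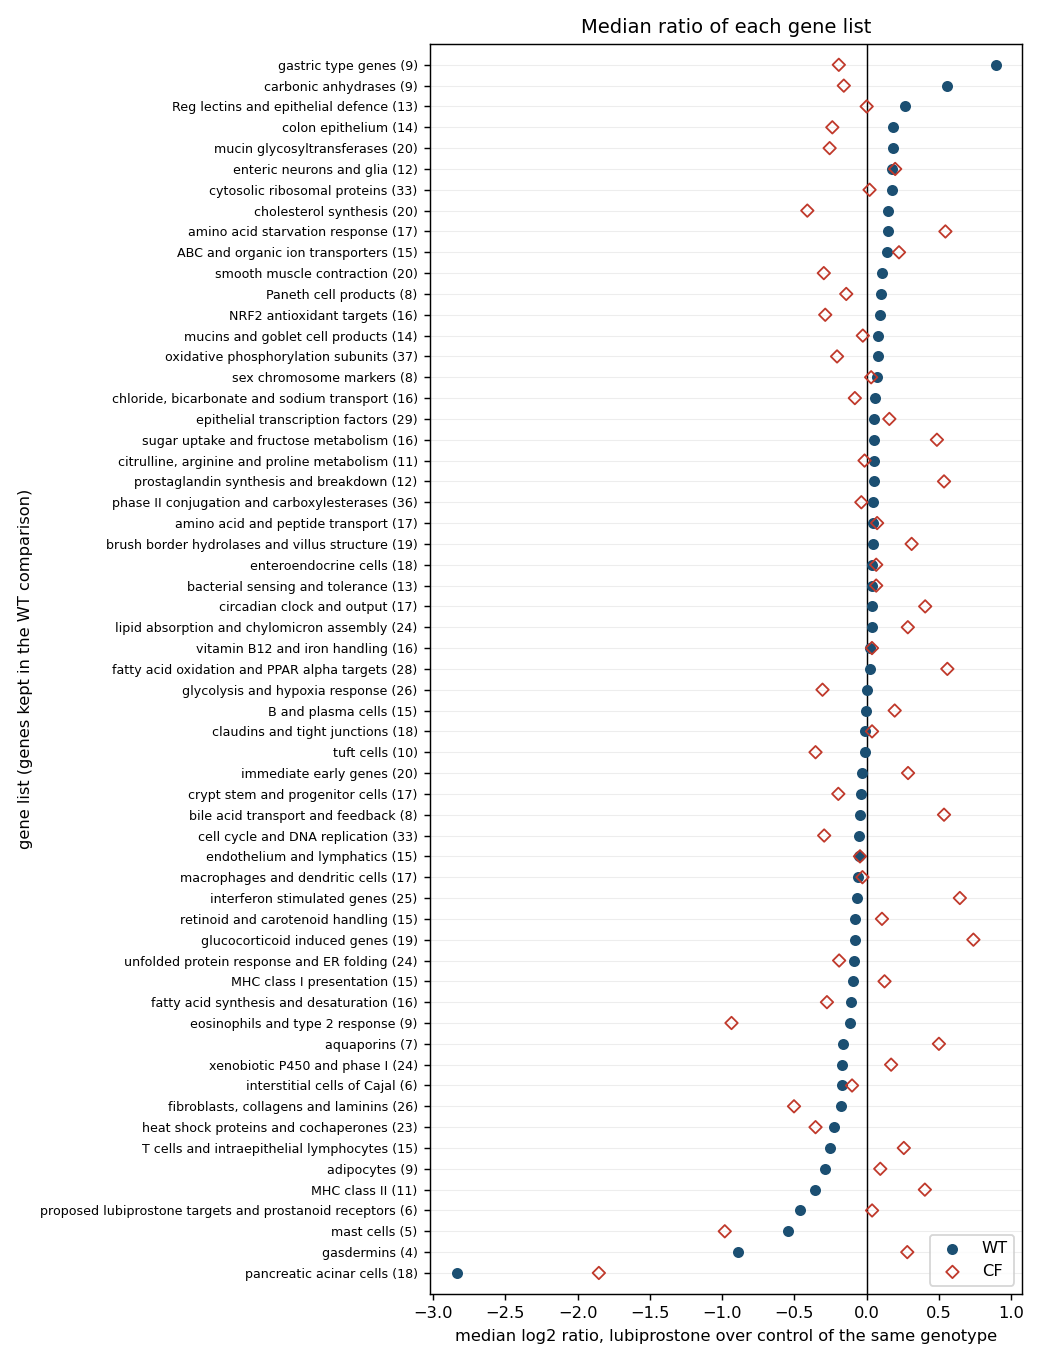
Median log2 ratio of lubiprostone over control (x axis) for the gene lists with at least 4 kept genes, with the number of genes kept in WT in parentheses, filled circles for WT and open diamonds for CF. Most WT circles lie close to 0 and the pancreatic list stands far to the left at -2.83, while the CF diamonds are spread more widely and often lie on the other side of 0.

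The remaining higher bright genes were of mixed roles. Depp1, a gene induced by fasting and FOXO factors, had signals of 98.3 and 580.1, at least 4.69-fold higher, and 2310057J18Rik, a gene without a named function, had 317 and 1333, 4.20-fold higher. Wfdc18, of the protease inhibitor family with WAP domains, had 289 and 756, 2.62-fold higher. The chloride channel gene Ttyh3 had 305 and 738, the glucuronosyltransferase gene Ugt2b38 had 381 and 852, and an immunoglobulin kappa variable segment had 424 and 917.

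Several ratios past 3-fold rested on 1 of a gene's probe sets. Of the 126 genes at least 3-fold apart 101 had 1 probe set. Of the 25 with more, 20 had all of them on the same side and 10 had each of them at least 2-fold apart. Pigs had ratios of 1.05 and 19.6, B4galnt1 of 1.08 and 15.5, Napb of 1.49 and 17.0, Surf2 of 1.29 and 24.4, and Gfod1 of 1.55 and 6.12. Ninj1, 2.18-fold higher on average, had 1.13 to 5.58. Among the lower genes, Mboat7 had 0.116 and 0.875, Mtfmt 0.0615 and 0.977, Rmc1 0.0949 and 0.871, Mycn 0.121 and 0.777, and Adamts5 0.108 and 0.744. For each of these the probe set nearest to 1 lay within 2-fold. By contrast both probe sets were lower by more than 2-fold for Pla2g1b, with ratios of 0.175 and 0.249, and for Car3, with 0.129 and 0.336.

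Set beside the CF pools, most of the bright genes that were at least 2-fold apart in WT had the same sign. Of the 26 bright 2-fold lower genes measured in CF, 24 were also lower with lubiprostone there, against 48.6% of all 11208 genes measured. At least 2-fold lower were 20 of them, against 1.499%. Without the pancreatic list the numbers measured, lower and 2-fold lower were 15, 13 and 9. Of 19 bright 2-fold higher genes 15 were higher in CF, against 51.4% of all genes, and 6 by at least 2-fold, against 2.43%. With dimmer genes included, 120 genes measured in CF were at least 2-fold lower in WT. In CF 34 of them were at least 2-fold lower, against 1.499% of all genes, and 8 at least 2-fold higher, against 2.43%. Of the 109 at least 2-fold higher in WT, 17 were at least 2-fold higher in CF and 9 at least 2-fold lower. Over all signals, the CF pools had 49 genes past 3-fold on the lower side (0.437% of those measured) and 66 on the higher side (0.589%). Those lower in both genotypes numbered 18, which is 40.0% of the 45 WT genes measured in CF and 36.7% of the 49. Most of the 18 belonged to the pancreatic list. The others were Pla2g1b, Cuzd1, Cyp1a1, Gsdmc2, Hspa1a, Hspa1b and Hsph1. Those higher in both numbered 3, which is 8.33% of 36 and 4.55% of 66. The 3 were 2310057J18Rik, Lce1h and Frs3, of which the last 2 were dim. Past 3-fold higher in WT and past 3-fold lower in CF were 2 genes, Cacng2 and Frat1, both dim. Across the 11208 genes, which are not independent replicates and are read on arrays with noise of their own, Pearson's r between the log2 ratios of WT and CF was 0.20 and Spearman's rho 0.19. Over the 6973 bright genes r was 0.34.

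**Figure D5:**
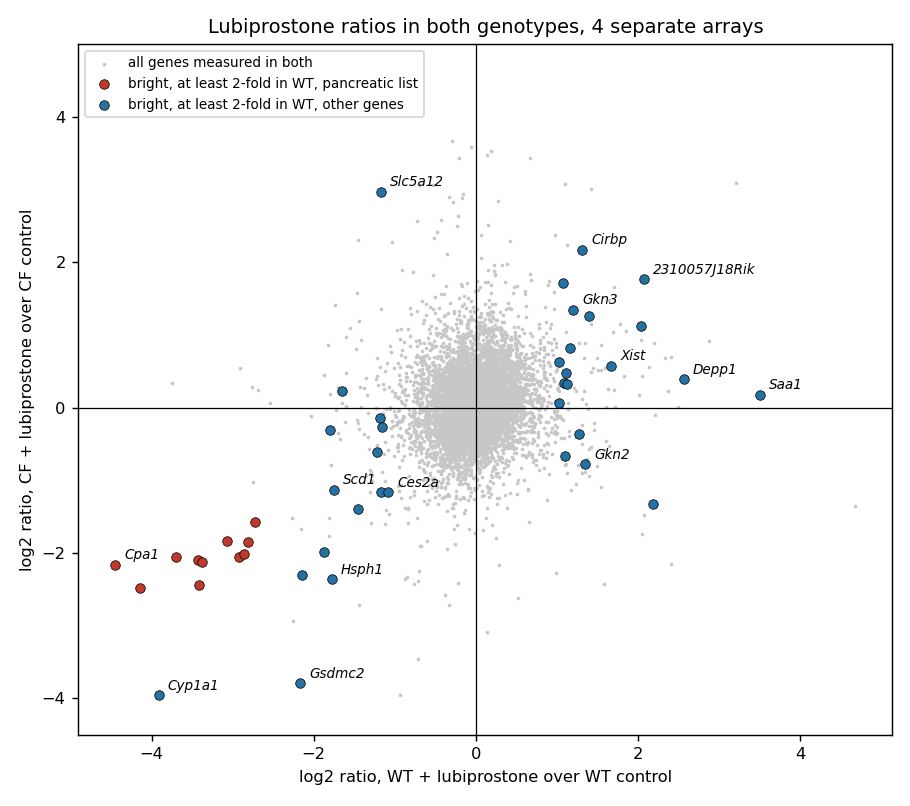
Log2 ratio of lubiprostone over control in CF (y axis) against that in WT (x axis), 1 point per gene measured in both, with the bright genes at least 2-fold apart in WT coloured, red for the pancreatic list and blue for the others. The pancreatic genes, Cyp1a1, Gsdmc2 and the heat shock genes lie at the lower left, low in both, Saa1 lies far to the right at a CF value of 0.18, and Slc5a12 lies at the upper left.

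Genes that the study singled out were also looked up in WT. Of the 19 kept 9 were higher, 1 of them by at least 1.5-fold against 4.41% of all genes, and 10 lower, 7 of them by at least 1.5-fold against 4.93%, with a median of -0.06. As the study chose these genes on the same arrays, their counts are no independent evidence. Pdk4, which restrains glucose oxidation, had 1460.5 and 900.3 in the WT pools, 1.62-fold lower, and 198 and 1655 in the CF pools, 8.36-fold higher. The calpain gene Capn13 had 201 and 220.4 in WT and 1737 and 204 in CF. The kinase gene Sgk1 had 8162 and 8529 in WT, and the carboxylate carrier gene Slc13a2 had 3245 and 3793. The gluconeogenic genes Pck1, with 1936 and 1494, and Fbp1, with 4883 and 6232, differed in opposite directions in WT.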

How the data were processed

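Equal amounts of total RNA were pooled within each group, and the pool was read on 1 Affymetrix mouse whole-genome array. The deposited values are linear signal intensities, which the authors extracted with GCOS; the submitters' processing notes also name MAS5. The mean without the highest and lowest 2% was near 499.8 on each array, so the arrays were already scaled. No detection calls were used here.

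Of 45101 probe sets, 34958 carry 1 gene symbol by the platform annotation, 932 carry several and 9211 are not named, and 34754 symbols were updated by gene identifier to RefSeq (GRCm38.p6). Probe sets at or above the array's median in either WT array were kept, and the log2 ratios of a gene were averaged. CF ratios use the same probe sets. The 62 gene lists were written from general knowledge, and 2 were added later. The members, lists and rules were chosen with earlier results of these data known. The genes named are the 15 highest and 15 lowest bright genes with probe sets in 1 direction, 3-fold genes with several probe sets on the same side, the 3 brightest and extreme members of lists described, the study's genes and the drug's proposed targets. Other members named were picked after their values were seen. The steps were tested on simulated data. Python 3.11 was used with pandas and numpy. The qRT-PCR and physiological measurements were not used here.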

Additional observations from a re-analysis of the deposited data

Results flagged for a closer look

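The following results had opposite signs with lubiprostone in WT and in CF, and none of these differences was tested, as each group is 1 array. Slc5a12 had a log2 ratio of -1.17 in WT, with signals of 1676 and 746, and of 2.97 in CF, with signals of 35.3 and 276, a difference of -4.14. The CF control signal lay under its array's median of 109. With that signal set to the median, Slc5a12 was at least 2.52-fold higher in CF. Pigs had 2.18 in WT and -1.32 in CF, a difference of 3.50 that rests on 1 of its 2 probe sets, whose WT ratios were 1.05 and 19.6. The median of the MHC class II list was -0.36 in WT and 0.40 in CF, a difference of -0.76. In WT 10 of 11 genes were lower, against 50.4% of all genes, and in CF 9 of 9 were higher, against 51.4%. The median of the T cell list was -0.26 and 0.26, a difference of -0.51. That of the gasdermin list, over 4 genes, was -0.89 and 0.28, a difference of -1.17, although Gsdmc2, its brightest member in CF control at 16915, was lower in both. With signals below the median set to it, the WT median of the gasdermin list was -0.07.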

How the results depend on the processing

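The counts depended on how dim signals were treated. For genes at least 3-fold higher and lower in WT + lubiprostone, 57 and 69, no filter gave 805 and 783, a filter at the 75th percentile 3 and 18, signals below the median set to it 5 and 19, and the 25th percentile added to each signal 12 and 33. For bright genes at least 2-fold higher and lower, 20 and 27, no filter gave 49 and 68, since more dim probe sets entered. Without the pancreatic list, an alternative chosen after seeing the data, 16 bright genes were 2-fold lower. The remaining alternatives left all 4 counts within 1.5 times the reported ones: the same median, quantile normalization, the brightest probe set, the mean of linear signals, and, added after seeing the data, leaving out the sex chromosome list and asking for every kept probe set past the fold. Of 480 recomputed list medians 465 moved by less than the median SD between probe sets, 12 moved by more and 3, from lists with a median at least 0.1 from 0, changed sign; medians nearer to 0 also crossed it. The 3 were gasdermins with no filter and with the filter at the 75th percentile (a median of 0.0113 in each) and the amino acid starvation response with that filter (-0.0853). The median of all genes ran from -0.0078 with no filter to 0.0118 with the arrays scaled to the same median. No paired analysis was possible because each group is 1 array. Between mice, nothing can be said of the spread.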
